A study of Arabidopsis thaliana with 12 samples.

Results

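TBL and XTH genes act on the polysaccharides of the plant cell wall, and their transcripts were described here in Arabidopsis thaliana roots given nitrate or a control salt. A gene was taken where the probe-to-gene table supplied with the data gave it a symbol of TBL or XTH followed by a number, on a probe set with 1 gene only. This gave 31 genes, 22 TBL and 9 XTH, of 13350 genes with such a probe set. Each of the 31 had 1 probe set, and no probe set with several genes in the table held a TBL or XTH symbol. RNA from whole roots was hybridised to 12 single-colour Affymetrix arrays, 3 for each of 4 groups. Seedlings 15 days old, of Col-0 wild type or of the tga1/tga4 double mutant, received 5 mM KNO3 or, as control, 5 mM KCl for 2 h. All 4 groups had grown before in hydroponic medium with sucrose in which ammonium succinate was the nitrogen source, so the KCl groups were also fed with ammonium. The labels give neither the alleles nor the number of plants behind a sample, and what made the replicates, termed biological there, independent of each other is not stated. The p-values refer to the variation among these samples alone, some of which may be technical.

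XTH genes encode xyloglucan endotransglucosylase/hydrolases, secreted enzymes that cut xyloglucan chains and in most cases rejoin them to another chain, which lets a wall be loosened, extended or reinforced while a cell grows. TBL stands for TRICHOME BIREFRINGENCE-LIKE, a family in which most characterised members are Golgi enzymes that add acetyl groups to wall polysaccharides, with different members acting on xylan, glucomannan, xyloglucan or pectin. TGA1 and TGA4 are bZIP transcription factors known as regulators of the root response to nitrate, and nitrate given to roots changes both metabolism and growth. The gene table held no entry for TGA1 or TGA4, so the loss of their transcripts in the mutant was not checked here.

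The values were on a log2 scale, so a difference of 1 is a doubling of signal. A level says how bright a probe set was and cannot be set against that of another gene. Sample medians over all probe sets lay between 2.21 and 2.41. Of the 31 genes, 14 lay above the sample median in all 12 samples and 9 lay below it in all 12, which for the second set means that signal was not shown to exceed background. Same-numbered wild-type and mutant samples of a salt deviated from their group means together, with correlations over probe sets between 0.28 and 0.73, so fits with replicate blocks are also given. Counts without the 4 samples numbered 3, a choice made after seeing the data, are given as well and do not remove this pairing. A gene was called where the adjusted p from limma was under 0.05 over the 22746 probe sets tested, and rose and fell are used only of called genes. Measured is used of a gene matched to a single-gene entry in the probe-to-gene table. As 8730 of the probe sets tested had no entry, a gene not measured in this sense may still have a probe set on the array.

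In wild-type roots a small set of XTH transcripts was higher with nitrate, and most TBL transcripts were not called. XTH20, XTH32 and XTH21 rose by 2.37, 2.04 and 1.38, TBL25 rose by 0.97 and TBL38 fell by 1.02. Of the 9 XTH genes 3 were higher and none lower, and of the 22 TBL genes 1 was higher and 1 lower, against 5.51% of all probe sets called, 3.32% higher and 2.19% lower. The median change was 0.15 over the XTH genes, -0.03 over the TBL genes and -0.01 over all probe sets. In the mutant the same 5 genes were called in the same directions, with TBL16 added, against 5.12% of all probe sets called, 3.17% higher and 1.95% lower. The median change in the mutant was 0.24 over the XTH genes, -0.09 over the TBL genes and -0.01 over all probe sets. Without the 4 samples numbered 3, XTH20 was the 1 XTH gene called in either genotype. XTH21 and XTH32 then changed by 1.25 and 2.03 in wild type and by 1.03 and 1.36 in the mutant. The share of all probe sets called in that run is not given here. In whole roots, a change in the share of a cell type and a change in RNA per cell cannot be told apart.

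**Figure D1:**
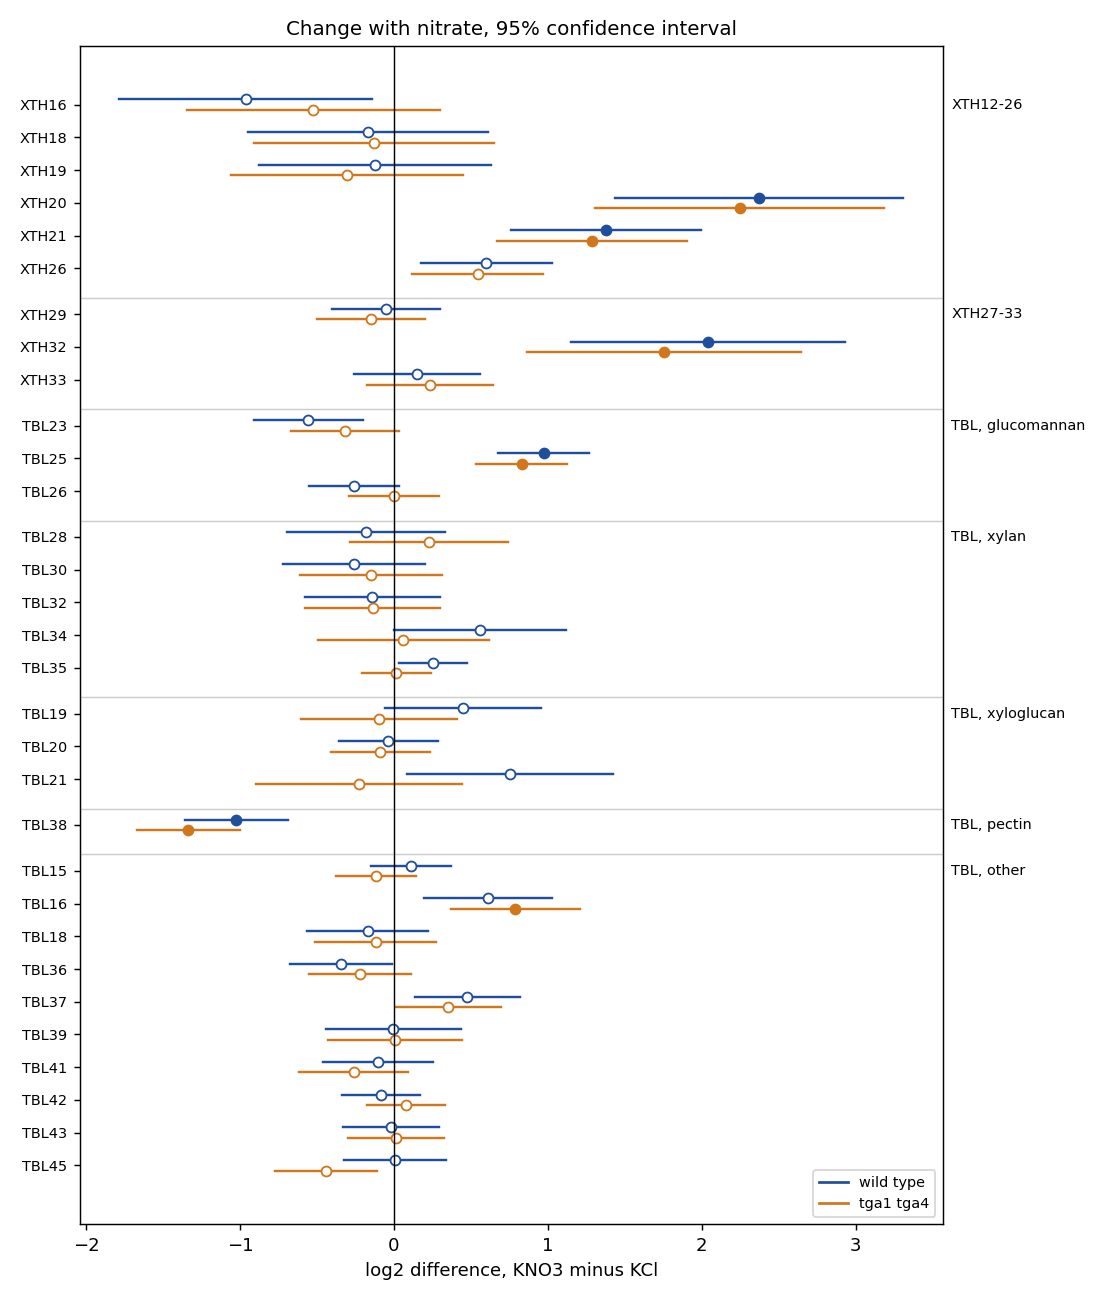
Change of each of the 31 genes with nitrate (KNO3 minus KCl, log2) in wild type (blue) and tga1 tga4 (orange); lines are 95% confidence intervals from limma, filled circles are genes called at an adjusted p under 0.05 and open circles are not. XTH20, XTH32, XTH21 and TBL25 lie to the right and TBL38 to the left in both genotypes, and TBL16 is filled in the mutant only.

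The mean of both genotypes' responses had the smallest error in the fit without replicate blocks and called 9 of the 31 genes. That fit takes same-numbered wild-type and mutant samples as independent, and the errors and p-values of the mean given by gene come from it unless a block is named. Of the XTH genes 4 were higher and none lower, and of the TBL genes 3 were higher and 2 lower, against 11.3% of all probe sets called, 5.82% higher and 5.44% lower. TBL23, TBL37 and XTH26 were called in this comparison and in neither genotype alone. With salt and replicate number as a random block 3 TBL and 3 XTH genes were called, and the same counts were found without the samples numbered 3. Shares of all probe sets called in these runs are not given here. The median of the mean response was 0.19 over the XTH genes, -0.00 over the TBL genes and -0.01 over all probe sets. The mean response uses the samples of the single-genotype comparisons and adds no independent samples. Its precision may be overstated, since same-numbered samples deviated together.

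XTH20 belongs to a group of closely related XTH genes, XTH17 to XTH20, that are expressed in roots. Its values in wild type were 3.96, 4.70 and 4.72 with KCl and 6.37, 6.71 and 7.42 with KNO3. In the mutant they were 3.63, 4.85 and 5.07 with KCl and 6.70, 6.11 and 7.47 with KNO3. Every KNO3 sample lay above every KCl sample in both genotypes, by more than 1 in each. The rise was 2.37 ± 0.43 (SE, 5.18-fold, limma adjusted p = 0.00606) in wild type and 2.25 ± 0.43 (4.74-fold, limma adjusted p = 0.00867) in the mutant. The mean rise was 2.31 ± 0.30, or 4.95-fold (limma adjusted p = 0.000314), the largest change among the 31 genes. Its call was kept under every alternative processing run, for each genotype and for the mean.

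The 2 other measured genes of this group went without a call. XTH18 values in wild type were 6.35, 5.50 and 5.60 with KCl and 5.58, 6.29 and 5.08 with KNO3, and in the mutant 6.11, 5.48 and 5.71 and then 5.82, 6.13 and 4.97. XTH19 values in wild type were 5.70, 4.44 and 4.66 with KCl and 5.36, 4.84 and 4.23 with KNO3, and in the mutant 5.42, 4.92 and 4.91 and then 5.01, 4.95 and 4.38. The salts overlapped for both genes in both genotypes. The mean response was -0.15 for XTH18, with a 95% interval from -0.70 to 0.40, and -0.21 for XTH19, with an interval from -0.75 to 0.32. These 2 genes lie next to each other on chromosome 4, with no protein-coding gene between them, while XTH20 lies on chromosome 5. The response of XTH20 exceeded that of XTH18 by 2.46 ± 0.62 (SE) and that of XTH19 by 2.52 ± 0.61. Both SEs take the genotypes as independent, although same-numbered samples deviated together, so they may be too small. These pairs were chosen after the values were seen, so the differences are given without a test.

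XTH21, known for a part in primary root growth, belongs to the same large class of XTH genes. Its values in wild type were 0.56, 0.90 and 0.71 with KCl and 2.42, 1.53 and 2.34 with KNO3. Mutant values were 0.76, 0.94 and 0.68 with KCl and 2.34, 1.42 and 2.48 with KNO3. The salts did not overlap in either genotype, the sample numbered 2 was the lowest under KNO3 in both, and all KCl values lay below the sample medians, so signal under KCl was not shown to exceed background. The KNO3 samples numbered 2 also lay below their medians, and the other KNO3 samples lay just above theirs. The rise was 1.38 ± 0.28 (SE, 2.6-fold, limma adjusted p = 0.013) in wild type, 1.29 ± 0.28 (2.44-fold, adjusted p = 0.0197) in the mutant and 1.33 ± 0.20 (2.52-fold, adjusted p = 0.000866) for the mean. In wild type the call ended without KCl replicate 1, KNO3 replicate 1 or KNO3 replicate 3 (limma adjusted p = 0.0515, 0.0652 and 0.059). In the mutant it ended without KCl replicate 1 or 3 or KNO3 replicate 1 or 3 (limma adjusted p from 0.0587 to 0.0984) and on the mutant groups alone (0.0551), while the mean response was called without any 1 sample.

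XTH32 belongs to a smaller class of the family, in the subgroup with XTH31 that is related to xyloglucan hydrolases. Its values in wild type were 2.01, 2.59 and 2.46 with KCl and 5.05, 3.62 and 4.51 with KNO3. In tga1 tga4 the values were 1.62, 2.71 and 2.11 with KCl and 3.71, 3.34 and 4.66 with KNO3. Again no KNO3 sample fell within the KCl range, and the sample numbered 2 was the highest under KCl and the lowest under KNO3 in both genotypes. XTH32 lay above the sample median in 9 of the 12 samples. Those below it were wild type KCl 1 and mutant KCl 1 and 3, where signal was not shown to exceed background. The rise was 2.04 ± 0.41 (SE, 4.11-fold, limma adjusted p = 0.0113) in wild type, 1.76 ± 0.41 (3.38-fold, adjusted p = 0.027) in the mutant and 1.90 ± 0.29 (3.73-fold, adjusted p = 0.000956) for the mean. In wild type the call ended without KNO3 replicate 1 (limma adjusted p = 0.055), and in the mutant without KCl replicate 1 or 3 or KNO3 replicate 1 or 3 (adjusted p from 0.07 to 0.0968) or on the mutant groups alone (0.0622).

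XTH26 is expressed in root hairs and is known there for binding of xyloglucan to the wall. Its values in wild type were 0.75, 0.63 and 0.61 with KCl and 1.38, 1.19 and 1.22 with KNO3. The mutant samples gave 0.70, 1.06 and 0.95 with KCl and 1.08, 1.29 and 1.97 with KNO3. Every KNO3 value exceeded every KCl value within a genotype, but all 12 values lay below the sample medians. The change did not pass in wild type (0.60, limma adjusted p = 0.118) or in the mutant (0.54, adjusted p = 0.166), and the mean rose by 0.57 ± 0.14 (SE, adjusted p = 0.0185). That call ended without wild type KNO3 replicate 1 (limma adjusted p = 0.0502) and with salt and replicate number as a random block (adjusted p = 0.0547).

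Of 8 root hair marker genes, 2 were measured, the expansin genes EXPA7 and EXPA18. They rose by 1.69 and 2.23 in wild type (limma adjusted p = 0.00547 and 0.00195, and 0.0905 for EXPA7 without the samples numbered 3), and their changes in the mutant, 0.54 and 0.73, were not called. Neither gene was called for the interaction. The log2 of their summed signal ranged from 3.76 to 3.90 in wild type under KCl, from 5.74 to 5.97 in wild type under KNO3, from 4.01 to 5.52 in the mutant under KCl and from 5.41 to 5.92 in the mutant under KNO3. The part of root hair RNA in the XTH values was not tested.

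The remaining XTH genes were not called in any comparison. XTH16 had the largest of these changes, with values of 4.01, 3.43 and 3.72 with KCl and 2.92, 3.37 and 2.00 with KNO3 in wild type. The corresponding mutant values were 3.65, 3.20 and 2.34 with KCl and 2.43, 2.97 and 2.23 with KNO3. The salts did not overlap in wild type and overlapped in the mutant, and the mean change of -0.74, with a 95% interval from -1.32 to -0.16, had a limma adjusted p of 0.105. XTH29 and XTH33, which encodes an XTH anchored in the plasma membrane, lay below the sample medians in all 12 samples, with mean changes of -0.10 and 0.19.

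**Figure D2:**
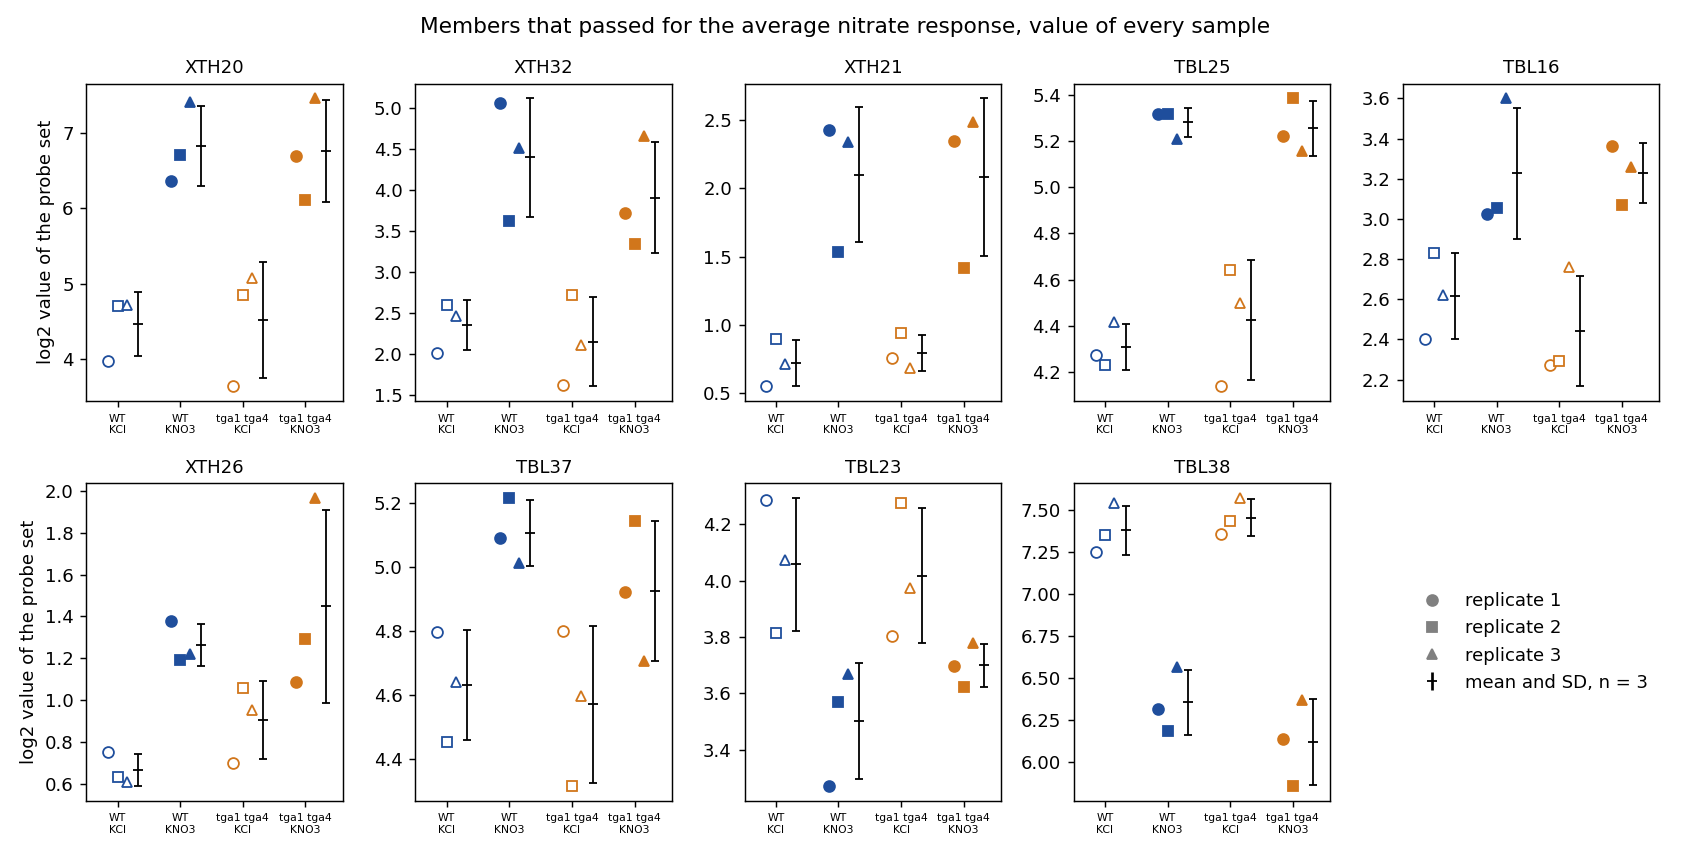
Log2 value of every sample for the 9 genes called for the mean nitrate response, by group, with circles, squares and triangles for replicates 1, 2 and 3 and bars for the mean and SD of 3 samples; each panel has its own axis. KCl (open) and KNO3 (filled) samples are separate in both genotypes for 8 genes, and for TBL37 the mutant samples overlap.

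TBL23, TBL25 and TBL26 belong to a group of TBL genes whose enzymes add acetyl groups to glucomannan. TBL25 values in wild type were 4.28, 4.23 and 4.42 with KCl and 5.32, 5.32 and 5.21 with KNO3. In the mutant they were 4.14, 4.64 and 4.50 with KCl and 5.22, 5.39 and 5.16 with KNO3. The KNO3 samples lay within 0.3 of each other and above all KCl samples in both genotypes. The rise was 0.97 ± 0.14 (SE, 1.96-fold, limma adjusted p = 0.000971) in wild type and 0.83 ± 0.14 (1.78-fold, adjusted p = 0.00303) in the mutant. The mean rise of 0.90 ± 0.10 had a limma adjusted p of 5.8e-05, and all 3 calls were kept under every alternative run.

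TBL23 ran the other way. Its values in wild type were 4.29, 3.82 and 4.07 with KCl and 3.27, 3.57 and 3.67 with KNO3. Mutant values were 3.80, 4.27 and 3.97 with KCl and 3.70, 3.62 and 3.78 with KNO3. The salts did not overlap in either genotype, though in the mutant the closest pair differed by little. Its changes of -0.56 in wild type and -0.32 in the mutant were not called (limma adjusted p = 0.0755 and 0.388), and the mean fell by 0.44 ± 0.11 (SE, adjusted p = 0.0281). The call ended with salt and replicate number as a random block (limma adjusted p = 0.0871), with an intensity trend (0.0578) and without any 1 of 6 samples, namely wild type KCl 1 or 3, wild type KNO3 1, mutant KCl 2 or mutant KNO3 1 or 2 (adjusted p from 0.0599 to 0.0716).

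TBL26 lay below the sample medians in all 12 samples, at group means between 0.65 and 0.91, and its mean change of -0.13 was not called. The response of TBL25 exceeded that of TBL23 by 1.34 ± 0.12 (SE), a pair also chosen after the values were seen and given without a test. That SE, too, takes the genotypes as independent.

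TBL38 has been reported to act on pectin, as an acetylesterase that removes acetyl groups from homogalacturonan. Its values in wild type were 7.25, 7.35 and 7.54 with KCl and 6.32, 6.18 and 6.57 with KNO3. In tga1 tga4 the values were 7.36, 7.44 and 7.57 with KCl and 6.14, 5.86 and 6.37 with KNO3. Every KNO3 sample lay well below every KCl sample. The transcript fell by 1.02 ± 0.15 (SE, 2.03-fold lower, limma adjusted p = 0.00163) in wild type and by 1.33 ± 0.15 (2.52-fold lower, adjusted p = 0.000206) in the mutant. The mean change was -1.18 ± 0.11 (limma adjusted p = 1.6e-05), the largest among the TBL genes, and its calls were kept under every alternative run.

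TBL16 and TBL37 are members with no polysaccharide assigned here. TBL16 values in wild type were 2.40, 2.83 and 2.62 with KCl and 3.02, 3.06 and 3.60 with KNO3. The mutant samples gave 2.27, 2.29 and 2.76 with KCl and 3.36, 3.07 and 3.26 with KNO3. The salts did not overlap in either genotype. TBL16 lay above the sample median in 9 of the 12 samples. Those below it were wild type KCl 1 and mutant KCl 1 and 2, where signal was not shown to exceed background. The change was 0.61 ± 0.19 (SE, limma adjusted p = 0.102) in wild type, a rise of 0.79 ± 0.19 (adjusted p = 0.0334) in the mutant, and a mean rise of 0.70 ± 0.13 (adjusted p = 0.00499). The mutant call ended without wild type KCl 3, mutant KCl 1 or 2 or mutant KNO3 1 or 3 (limma adjusted p from 0.0526 to 0.141), with the arrays scaled by quantiles or by their medians (adjusted p = 0.08 and 0.0681), with an intensity trend (0.0545) and on the mutant groups alone (0.0548). The difference between the genotypes' responses was 0.18, with a 95% interval from -0.41 to 0.77.

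TBL37 values in wild type were 4.80, 4.45 and 4.64 with KCl and 5.09, 5.22 and 5.01 with KNO3. The corresponding mutant values were 4.80, 4.31 and 4.59 with KCl and 4.92, 5.14 and 4.71 with KNO3. The salts were separate in wild type and overlapped in the mutant. The mean rose by 0.42 ± 0.11 (SE, limma adjusted p = 0.0311), while the changes of 0.48 in wild type and 0.35 in the mutant were not called. The call of the mean ended with the random block (limma adjusted p = 0.0503), with an intensity trend (0.0556) and without any 1 of 8 samples, namely wild type KCl 2 or 3, wild type KNO3 1 or 2, mutant KCl 2 or 3 or mutant KNO3 1 or 2 (adjusted p from 0.0514 to 0.0768).

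None of the 5 measured TBL genes known for acetylation of xylan was called in any of the 6 comparisons. Of all probe sets 5.51% were called for nitrate in wild type, 5.12% in the mutant and 11.3% for the mean. In the other comparisons at most 0.0176% were called, so for so few genes the lack of calls is near the background. These were TBL28, TBL30, TBL32, TBL34 and TBL35, whose mean changes with nitrate ran from -0.20 for TBL30 to 0.31 for TBL34. TBL28 and TBL30 are neighbouring genes on chromosome 2, with mean changes of 0.02 and -0.20. The probe set of TBL32 is of a kind that can hybridise to related transcripts, so its value is less certain. TBL35 had the smallest spread within groups of the 31 genes, with an SD of 0.0797, and its change of 0.25 in wild type, with a 95% interval from 0.03 to 0.48, was not called (limma adjusted p = 0.229).

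TBL19, TBL20 and TBL21 are relatives of AXY4, the enzyme that acetylates xyloglucan, and none was called. For the mean nitrate response 11.3% of all probe sets were called, so this too is near the background. TBL20 lay below the sample medians in all 12 samples, and TBL19 in all but 1. TBL19 and TBL21 are neighbours on chromosome 5, and their changes with nitrate were 0.45 and 0.76 in wild type and -0.10 and -0.23 in the mutant. Of the other 8 TBL genes, TBL15, TBL41, TBL42 and TBL43 lay below the sample medians in all 12 samples. TBL18, TBL36, TBL39 and TBL45 lay above them in all 12, and their mean changes ran from -0.28 for TBL36 to 0.00 for TBL39.

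**Figure D3:**
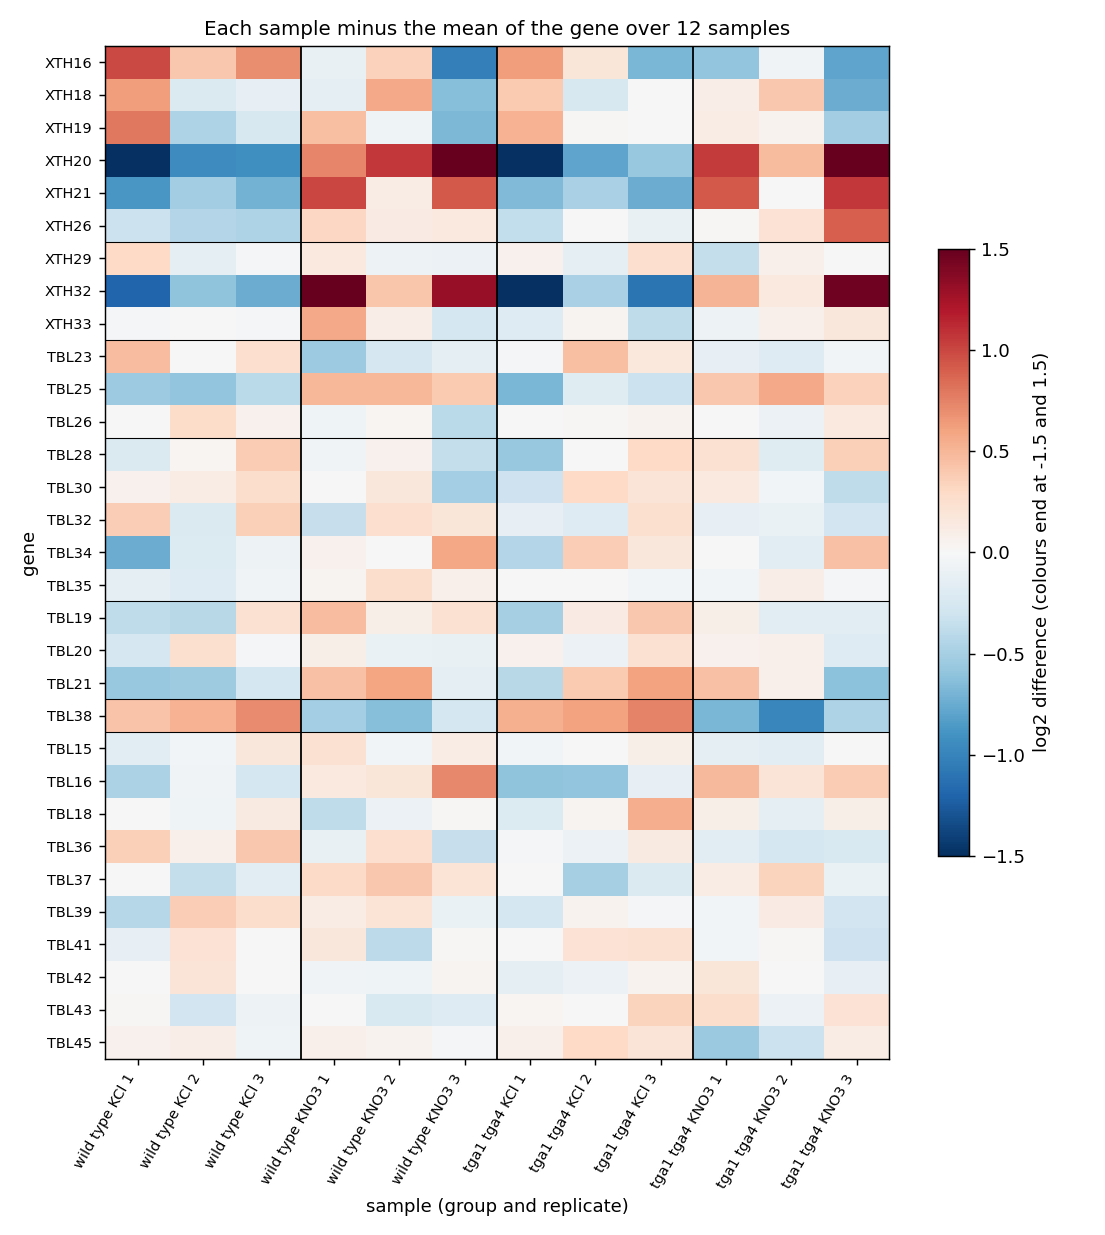
Each sample's log2 value minus the mean of that gene over the 12 samples, with genes in rows, grouped as in the text, and samples in columns in 4 groups of 3; red is above and blue below the gene's mean. XTH20, XTH21, XTH32 and TBL25 change from blue to red and TBL38 from red to blue with KNO3 in both genotypes, while most other rows stay pale.

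Members varied unequally between replicates. The median SD within groups was 0.492 for the XTH genes, 0.196 for the TBL genes and 0.206 for all probe sets, so the same change is less readily called for an XTH gene. XTH20 had the largest SD of the 31 genes, 0.62, and TBL25 and TBL38 had 0.154 and 0.185. In wild type, 10 genes had all KNO3 samples above all KCl samples and 3 had them below, against 9.62% and 11% of all probe sets. In the mutant the counts were 6 and 3, against 9.86% and 9.74%. In both genotypes at once, 6 genes were separate upwards (XTH20, XTH21, XTH26, XTH32, TBL16 and TBL25) and 2 downwards (TBL23 and TBL38), against 4.62% and 4.26% of all probe sets.

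Neither genotype comparison called any of the 31 genes. Mutant and wild type differed for 0.0176% of all probe sets under KCl and 0.0132% under KNO3 at this threshold, and 0 of the 31 genes had an unadjusted limma p under 0.05 in either, against 4.7% and 1.75% of all probe sets. Under KCl the differences, mutant minus wild type, ran from -0.66 for XTH16 to 0.65 for TBL21. Under KNO3 they ran from -0.49 for XTH32 to 0.28 for TBL43. The genotypes did not overlap for TBL35 under KCl, where the mutant was higher, against 3.81% of all probe sets. They did not overlap for TBL19 under KNO3, where the mutant was lower, against 3.57%, though the closest samples differed by less than 0.01. No gene was separate with the mutant lower under KCl, against 5.34% of all probe sets, or with the mutant higher under KNO3, against 3.21%. TBL19 values under KNO3 were 2.27, 1.89 and 2.04 in wild type and 1.89, 1.63 and 1.63 in the mutant, and under KCl the genotypes overlapped, at 1.61 ± 0.36 (SD, n = 3) and 1.81 ± 0.46. All these KNO3 values of TBL19 lay below their sample medians, so signal was not shown to exceed background. Its difference under KNO3, -0.35, was the largest of the TBL genes, with a 95% interval from -0.85 to 0.16.

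**Figure D4:**
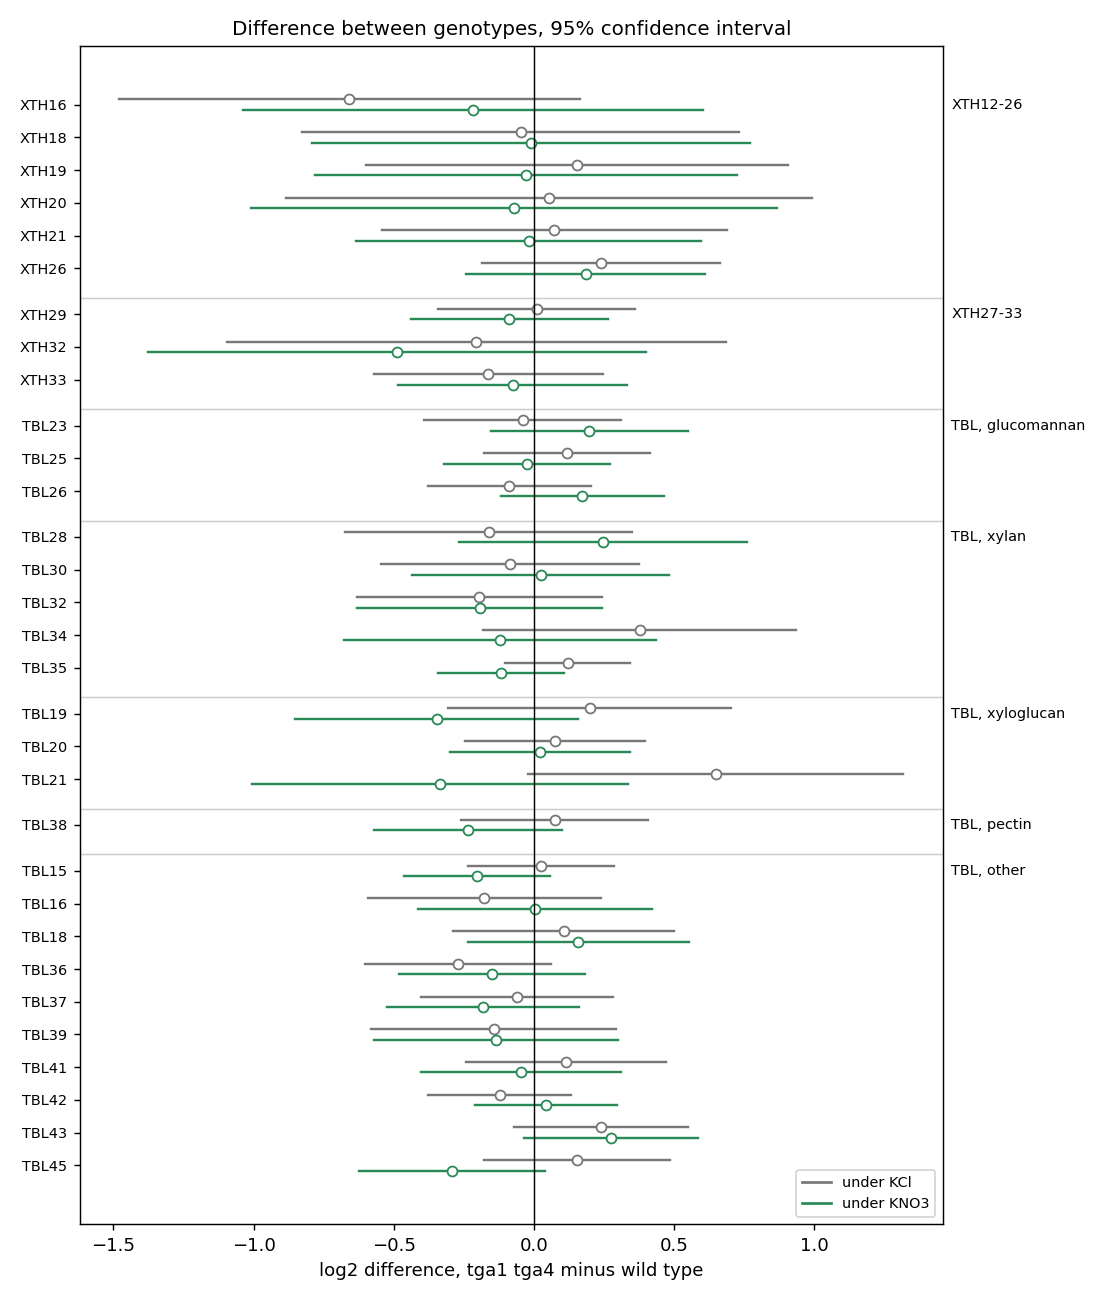
Difference between genotypes (tga1 tga4 minus wild type, log2) for each of the 31 genes under KCl (grey) and KNO3 (green), with 95% confidence intervals from limma; open circles were not called at an adjusted p under 0.05. All circles are open, and all intervals cross 0.

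The interaction, which asks whether the nitrate response itself differed between the genotypes, called none of the 31 genes, against 0.0044% of all probe sets. At the same threshold without adjustment limma held 1 gene, TBL21, whose p was 0.0432 before and 0.999 after adjustment over all probe sets. Of all probe sets 3% lay under that threshold, so 1 of 31 genes is near the background. TBL21 values in wild type were 2.15, 2.19 and 2.46 with KCl and 3.17, 3.32 and 2.58 with KNO3, and in the mutant 2.31, 3.12 and 3.32 and then 3.16, 2.80 and 2.11. The salts were separate in wild type and mixed in the mutant. Its response in the mutant minus that in wild type was -0.98, with a 95% interval from -1.93 to -0.04. For XTH16, the largest of the XTH genes, the difference was 0.44, with an interval from -0.72 to 1.60, and it was -0.15 without the samples numbered 3.

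For the 5 genes called in both genotypes the interval of the interaction bounds how far the responses could differ. It was -0.14 for TBL25, from -0.56 to 0.28, and -0.31 for TBL38, from -0.78 to 0.16. It was -0.13 ± 0.61 (SE) for XTH20, -0.09 for XTH21, from -0.96 to 0.78, and -0.28 for XTH32, from -1.54 to 0.98. The XTH intervals thus leave room for differences of more than 0.7 either way in the fit without replicate blocks. That fit does not use the pairing of same-numbered wild-type and mutant samples, and intervals from a paired fit are not given here. The mutant has only 3 samples per salt, and a missed call does not show that the genotypes respond alike.

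Other wall genes were read from lists by pathway, and those not measured had no matching single-gene entry in the probe-to-gene table. Of 13 genes of xyloglucan synthesis 5 were measured, and CSLC4, which makes the glucan backbone of xyloglucan, fell by 0.74 in wild type (limma adjusted p = 0.00677) and by 0.51 for the mean (adjusted p = 0.00444), while its change of -0.28 in the mutant was not called. CSLC4 was the 1 gene of this list called in wild type and for the mean, against 5.51% and 11.3% of all probe sets called. No gene of this list was called for the interaction. None of 3 genes of xyloglucan trimming was measured. A list of 6 genes linked to acetylation of wall polysaccharides held RWA genes, AXY9 and TBR. Only AXY9 and TBR were measured, with mean changes of 0.15 and 0.02, and neither was called. No RWA gene was matched to a single-gene entry, so these values say nothing on the supply of acetyl groups by RWA genes. Of 12 genes of xylan synthesis 4 were measured, and IRX15 rose by 0.55 for the mean (limma adjusted p = 0.0135, and 0.11 without the samples numbered 3). It was the 1 gene of this list called for the mean, against 11.3% of all probe sets called. Its group means, from 1.29 to 1.94, lay below the sample medians, which limits what the change can show. The single measured gene of 13 for cellulose synthesis was not called.

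Expansins, which loosen walls without cutting their chains, had 14 measured genes. In wild type EXPA7 and EXPA18 were higher and 12 were not called, against 5.51% of all probe sets called. The wild-type change of EXPA8, -0.94, was among those not called (limma adjusted p = 0.0646). In the mutant EXPA8 was lower by 2.15 (limma adjusted p = 0.000349) and 13 were not called, against 5.12% of all probe sets called. No expansin was called for the interaction. For the mean, 2 were higher and 1 lower, against 11.3% of all probe sets called. The 1 measured pectin methylesterase gene was not called, and GAUT15, of a family of pectin synthesis genes, fell by 0.84 for the mean (limma adjusted p = 0.0103, and 0.141 without the samples numbered 3). Of 8 leaf markers 1 was measured, RCA, with a mean change of -0.40 that was not called. None of the 5 endodermis, 8 stele and xylem and 4 meristem markers was matched to a single-gene entry, which does not show that the array lacks them.

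Signs of RNA quality were read from control probe sets. The actin probe sets' 3′ minus 5′ difference, which grows as RNA is degraded, was 1.89 to 2.46 in wild type under KCl, 1.81 to 1.91 in wild type under KNO3, 1.54 to 1.80 in the mutant under KCl and 1.69 to 1.80 in the mutant under KNO3. The ranges of the salts overlapped within each genotype. Between the genotypes they did not overlap in either salt, with wild type higher, so the actin difference cannot be told apart from genotype. The same difference for GAPDH was -0.00 to 0.28, -0.08 to 0.24, -0.21 to 0.14 and -0.31 to 0.08 in the same order, and overlapped between all 4 groups. The part of RNA quality in the results was not tested.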

How the data were processed

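The authors deposited 1 table of log2 values, 1 per probe set and sample, for the 12 arrays. How background was corrected and arrays were normalized and summarised is not given in the sources used here. For the present work the log2 scale was settled from the hybridisation controls, whose slope on log2 nominal concentration was 1.00. Of 22810 probe sets, 64 controls were left out and 22746 tested. The probe-to-gene table gave 1 gene for 13513 of these, several for 503 and none for 8730; all 31 members had a locus in RefSeq annotation TAIR10.1, used only for names, loci and neighbours. RefSeq holds 41 numbered TBL and 30 numbered XTH genes, and those without a single-gene entry were not analysed here. Arrays give no read depth, and the 3 samples per group limit the precision.

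Group means of all 12 samples were modelled together in limma 3.58.1 under R 4.3.3 (eBayes without trend, two-sided), with statmod 1.5.0 for the random block, and 6 contrasts were adjusted by the Benjamini-Hochberg method over 22746 probe sets. The model was tested on simulated data. Genes are given with all sample values where they were called in any contrast or had the largest estimate of their family, and a few others were added after their values were seen (XTH18 and XTH19). Members and lists were chosen with earlier results of these data known. Replicate numbers paired the genotypes within a salt, with correlations of deviations from 0.34 to 0.53 under KCl and 0.28 to 0.73 under KNO3, but did not pair the salts, with correlations from -0.14 to 0.23. No 2 columns were identical, and the highest correlation between arrays was 0.986. Alternatives were quantile and median scaling, a filter on dim probe sets, other variance models, array weights, fits on the contrast's groups only, replicate blocks, averaging of probe sets and leaving out samples. Sequences were not used here.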

Additional observations from a re-analysis of the deposited data

How the results depend on the processing

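Each count, each member given with all sample values, TBL35 and the called genes outside the families were recomputed with quantile or median scaling, without dim probe sets, with a trend or robust variance, with array weights, on the contrast's groups only, with replicate blocks and without each of the 12 samples, and, chosen after seeing the data, without the 4 samples numbered 3. The TBL count for the mean response was 5 and became 3 with an intensity trend, 3 with salt and replicate number as a random replicate block and 3 without the samples numbered 3, and ran from 3 to 6 without single samples. The XTH count in wild type was 3 and became 1 without the samples numbered 3, with a range of 1 to 4 without single samples. In the mutant it was 3 and became 1 on the contrast's groups only and 1 without the samples numbered 3, with a range of 1 to 3. For the mean it was 4 and became 2 on the brighter probe sets, which leave out XTH21 and XTH26 by construction, with a range of 3 to 5. The interaction of XTH16 changed sign, from 0.44 to -0.15, without the samples numbered 3. The uncalled mean change of XTH18, -0.15, became 0.0061 with array weights, 0.093 without the samples numbered 3 and from -0.31 to 0.020 without single samples, and that of XTH19, -0.21, became 0.019 with array weights. The causes were not tested, and the shares of all probe sets called in these runs are not given here. The TBL counts within a genotype moved by at most 1.5 times, from 2 to 3 in wild type and from 2 to 4 in the mutant. With the pairing of genotypes as a fixed or random replicate block, no member was called between genotypes or for the interaction, and the random block ended the calls of TBL23, TBL37 and XTH26 for the mean response and, outside the rule, of TBL40, ended no other call among the genes recomputed, and added EXPA8 in wild type (adjusted p = 0.0419, limma) and GAUT15 in the mutant (0.0311). TBL25, TBL38 and XTH20 kept their calls throughout. Averaging probe sets left members as they were, since each had 1. For genes below the sample medians, signal over background limits what a change can show.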

Other observations

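Family members under another symbol in the gene table fell outside the rule. TBL40 had 2 probe sets: 1 fell by 0.48 for the mean nitrate response (limma adjusted p = 0.0246), a call that ended with salt and replicate number as a random block (0.0529), with both probe sets averaged (0.121), without the samples numbered 3 (0.174) and without wild type KCl 1 or 3, wild type KNO3 1 or 3, mutant KCl 2 or mutant KNO3 1 (from 0.0511 to 0.0685), and the other changed by -0.29 and was not called (adjusted p = 0.416). XTH27, listed as EXGT-A3, changed by -0.35 and was not called (limma adjusted p = 0.263).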
